A study of Homo sapiens with 6 samples.

Results

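The genes followed here encode the nuclear subunits of the oxidative phosphorylation (OXPHOS) complexes in the bladder cancer cell line HT-1376. They were chosen by symbol, as the protein-coding genes of GENCODE release 44 in the count table whose symbols begin with NDUFA, NDUFAB, NDUFB, NDUFC, NDUFS or NDUFV and a digit, with UQCR, with COX4 to COX8 followed by A, B or C, or with ATP5F, ATP5M or ATP5P. This rule took 83 of the 63241 genes of the table, 40 of complex I (NADH dehydrogenase), 9 of complex III (the cytochrome bc1 complex), 15 of complex IV (cytochrome c oxidase) and 19 of complex V (ATP synthase). By its letters the rule leaves out COX4I1, CYC1, cytochrome c and complex II, which are given separately. It places NDUFA4 with complex I, although this protein is known as a subunit of complex IV, and it takes the read-through genes NDUFC2-KCTD14 and ATP5MF-PTCD1.

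The HT-1376 line comes from a human bladder carcinoma and is an established cell line. The siSHMT2 group was transfected with a single siRNA against SHMT2 and the siNC group with a non-targeting siRNA, both in otherwise unmodified cells with the same transfection reagent, and both were collected after 24 h. RNA-seq libraries were made by mRNA capture and a kit that keeps strand, for 3 biological replicates of each group, and whether these came from separate cultures or days is not given in the sources used here. P-values therefore measure the spread between these libraries, in a single cell line with a single siRNA.

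In the mitochondrial inner membrane, complex I takes electrons from NADH and complex II takes them from succinate, complex III passes them from ubiquinol to cytochrome c, and complex IV passes them to oxygen. Complexes I, III and IV pump protons as they do so, and complex V uses the resulting gradient to make ATP. A minority of the subunits is encoded by the mitochondrial genome, and the nuclear subunit genes are known for promoter sites of nuclear respiratory factor 1 (NRF1), of the ETS factor GABPA and of YY1. SHMT2 is the mitochondrial serine hydroxymethyltransferase, which makes glycine and folate-bound carbon units from serine.

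The promoters of the subunit genes carried these motifs more often than promoters at large. RefSeq windows of GRCh38.p14, from 250 bases before to 50 bases after the start of each gene, were matched by symbol for 66 of the 83 genes and searched on both strands. The NRF1 motif GCGCATGC was in 12 of the 66 windows (18.2%), against 3.68% of the windows of all 27305 genes and 4.89% of the windows of 15843 protein-coding genes. The ETS motif CCGGAAGT was in 11 windows (16.7%, against 4.95% and 6.97%), and the YY1 motif AAGATGGCG in 8 (12.1%, against 2.14% and 3.21%). No test was run on these shares. The stretches printed here are those of genes that recur in the comparisons, each 30 bases long, on the strand of the gene and with the motif in capitals. For ATP5F1C, COX6A1, NDUFA5, COX5B and ATP5ME the capitals mark the NRF1 motif, which reads as its reverse complement in COX5B.
ATP5F1C, chr10:7788144-7788173, plus strand: ggggagcttcgGCGCATGCgcgctgaggcc
COX6A1, chr12:120437928-120437957, plus strand: ggaggtgcagaGCGCATGCtctctcttgcc
NDUFA5, chr7:123557958-123557987, minus strand: gtatgcccatcGCGCATGCgtcaatttttc
COX5B, chr2:97645915-97645944, plus strand: ggcagagctggGCATGCGCaatttccgccc
ATP5ME, chr4:674336-674365, minus strand: cgccgctgacgGCGCATGCgtgcgcccagc

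The printed match began 22 bases before the RefSeq start in ATP5F1C, 174 in COX6A1, 158 in NDUFA5, 136 in COX5B and 78 in ATP5ME. ATP5F1C had another match on the other strand, overlapping it and beginning 20 bases before the start, and COX6A1 had another on the other strand 218 bases before. In the next set the capitals mark the reverse complement of the ETS motif in UQCRH and ATP5F1A, and the YY1 motif in UQCRC1. The ETS matches began 47 bases before the start of UQCRH and 49 before that of ATP5F1A, while the YY1 match of UQCRC1 lay behind its start.
UQCRH, chr1:46303640-46303669, plus strand: gagtgtgccgcACTTCCGGccagatcgccg
ATP5F1A, chr18:46098327-46098356, minus strand: cgaggggcagtACTTCCGGgtcaggtgggc
UQCRC1, chr3:48609604-48609633, minus strand: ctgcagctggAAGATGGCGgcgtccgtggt

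A match is a description of these letters and does not show that a factor binds there. The subunit genes were spread over 22 chromosomes, with 12 on chromosome 19. A gene on the opposite strand started within 1000 bases upstream of the start of 26 of the 83 genes (31.3%), against 16.7% of the 20045 protein-coding genes of the table.

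In library order, siNC replicates 1 to 3 had total counts of 817748, 660559 and 890574, and siSHMT2 replicates 1 to 3 had 533689, 818859 and 815061. These totals are reads assigned to genes in the deposited table. They are a small part of the sequenced reads that the study describes, and why the other reads carry no count is not given in the sources used here. Of these counts the 83 subunit genes together held 959 to 1606 counts per library, or 0.164% to 0.192% of a library. Of the 83 genes, 7 had no count in any library, 38 had 1 to 59 counts over the 6 libraries and 38 had 60 or more. The genes with 60 or more counts were 19 of complex I, 3 of complex III, 6 of complex IV and 10 of complex V. All 38 passed the filter on low counts, and fold changes are given for these alone. The rule that set this minimum used the sum over both groups.

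The knockdown target had fewer counts in every siSHMT2 library than in any siNC library. SHMT2 (ENSG00000182199) had 28, 15 and 20 counts in siNC, listed by replicate number as all values below, and 9, 2 and 5 counts in siSHMT2. Every siSHMT2 library lay under every siNC library after scaling to library size. Its log2 fold change was -1.78 (SE 0.50), and its unadjusted p of 0.000559 became 0.932 after Benjamini-Hochberg adjustment over all 7207 genes that entered edgeR's quasi-likelihood test.

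The cells had the markers of their label. Among 16 urothelial and epithelial markers, the keratins KRT8, KRT18 and KRT7 had 13773, 5544 and 2333 counts over the 6 libraries, and 12 of the markers had 60 or more. Exons of KRT8 and KRT18 share 525 bases on opposite strands. KRT7 shares 282 bases with KRT7-AS on the other strand, which had 2060 counts. The part of these overlaps in the keratin counts was not tested. Of the uroplakins, proteins of the superficial urothelium, UPK1B had 891 counts, UPK2 had 1 and UPK3A had 0, and the superficial keratin KRT20 had 1. The whole list held 0.529% to 0.589% of a library. Of the 12, 7 were higher and 5 lower in siSHMT2. GATA3, a urothelial transcription factor, had a log2 fold change of 0.54 (SE 0.23, unadjusted p = 0.0225, adjusted p = 0.999 by edgeR's quasi-likelihood test). Its siSHMT2 libraries all lay above its siNC libraries, as in 4.57% of the 6702 tested genes with 60 or more counts. Of these genes, 1.92% were higher at an unadjusted p under 0.05. The part of GATA3 in the comparisons of the subunits was not tested. The 6 fibroblast markers had 83 counts over all libraries, of which COL1A2 held 62. The 4 immune markers had 7 counts, all from CD68, and the 3 endothelial markers had 11, of which CDH5 held 9. DCN, LUM, PDGFRB, PTPRC, CD3E, LYZ and VWF of these lists had 0 counts in every library. The remaining members, COL3A1, COL1A1 and PECAM1, had 14, 7 and 2 counts over the 6 libraries.

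Per length, the counts of the subunit genes were above those of the typical gene. The kit keeps strand and the strand setting of the counting is not given in the sources used here, so whether a count stands for the RNA of the gene or for reads of its other strand was not tested, and every level here carries that limit. The median FPKM (counts scaled by the listed gene length and the library total) of the 76 subunit genes with a count was 8.19, against 2.39 for the 13627 protein-coding genes with a count, and 59 of the 76 (77.6%) lay above that value. Among the 38 genes with 60 or more counts, the mean FPKM over the 6 libraries ran from 1.98 for NDUFS1 to 153 for NDUFS5, both of complex I. NDUFS1 is an iron-sulfur core subunit, and NDUFS5 is a small accessory subunit. The median level was 13.4 FPKM for the 19 genes of complex I, 33.2 for the 3 of complex III, 20.9 for the 6 of complex IV and 14.6 for the 10 of complex V. With the length of the canonical transcript of GENCODE release 44 in place of the listed length, an alternative chosen after seeing the data, the medians were 28.3, 33.2, 41.6 and 26.6 in the same order, and complex IV came before complex III.

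**Figure D1:**
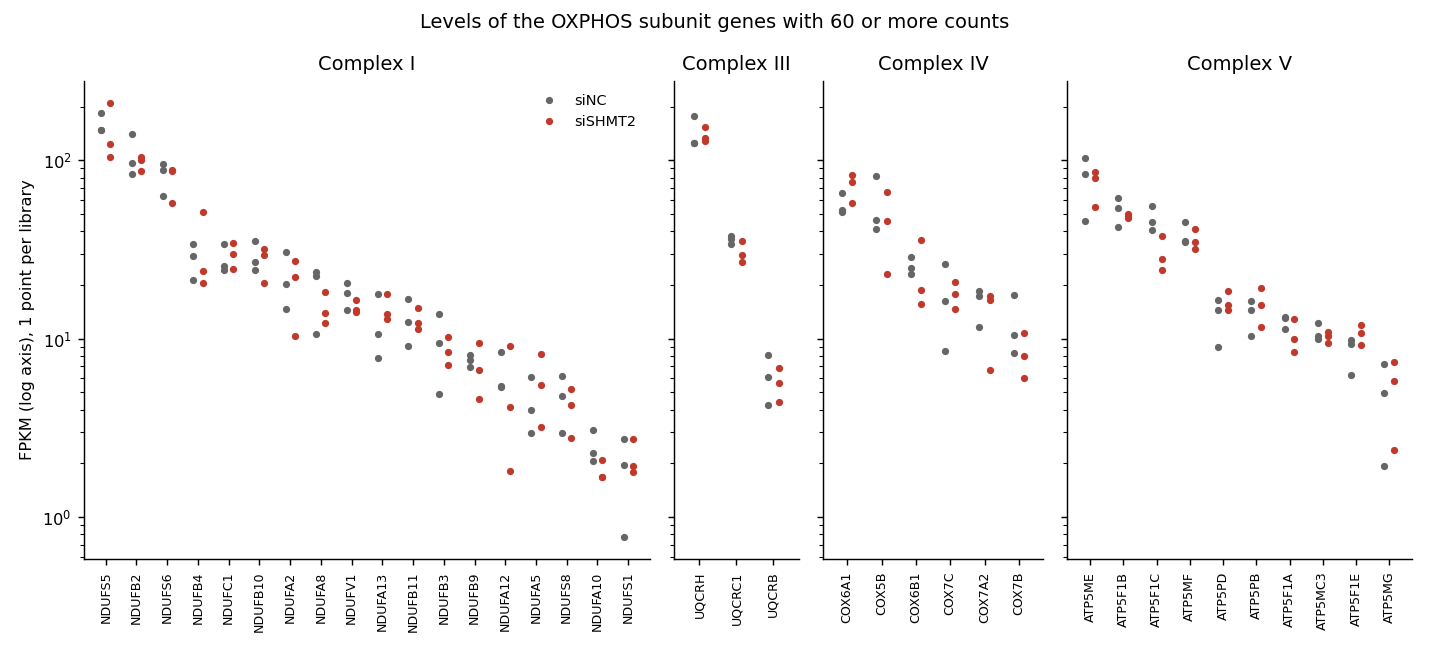
FPKM of all but 1 of the 38 OXPHOS subunit genes with 60 or more counts, by complex and ordered by mean level; each point is a library, grey for siNC and red for siSHMT2, on a log axis. Levels run from 1.98 (NDUFS1) to 153 (NDUFS5), and for most genes the points of the groups lie among each other.

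Within complex III the highest level was that of UQCRH, the hinge protein, at 140 FPKM, and the lowest that of UQCRB, a small core-bound subunit, at 5.88. Within complex IV COX6A1 was highest at 64.3 FPKM and COX7B lowest at 10.2, and within complex V ATP5ME, a subunit of the membrane part, was highest at 75.5 and ATP5MG, another of that part, lowest at 4.95. The highest genes of neighbouring rank did not stand apart: NDUFS5 had 160 ± 21.0 (SD, n = 3) and UQCRH 142 ± 29.6 (SD, n = 3) FPKM in siNC. The order within complexes rests on the listed lengths too. With the canonical lengths NDUFB2 led complex I at 365 FPKM against 168 for NDUFS5, and ATP5F1E became the lowest gene of complex V at 9.56. NDUFB2 had the most counts of all 83 genes, 767 over the 6 libraries.

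Several subunits exist as isoforms from different genes, and in these cells most counts fell on the isoform that is common to most tissues. COX6A1 had 223 counts over the 6 libraries and its heart and muscle counterpart COX6A2 had 0. COX7A2 had 61 counts, COX7A2L, known for its role in supercomplexes, had 38, and the heart and muscle form COX7A1 had 0. COX7B had 112 counts and COX7B2 had 0, and COX8A had 38 and COX8C had 0. A count of 0 over the 6 libraries allows up to 3 counts of 4536490, or 0.661 CPM of all counts, for counting error only. A 0 in this table need not mark an isoform that is not used, since NDUFA7, a subunit of complex I without such a tissue restriction, also had 0 counts, and NDUFC2 and NDUFA9 had 4 and 5. COX6B2, a testis form, was not at 0: it had 15 counts, beside 85 for COX6B1. Exons of other genes on the same strand cover 32.5% of the exonic bases of NDUFA7, 18.6% of NDUFC2 and 10.6% of NDUFA9. They cover 29.1% of COX6B2 and 35.4% of COX8A, and 0.0% of COX6A2, COX7A1, COX7B2 and COX8C. The part of this overlap in the counts was not tested. Of the genes for the c subunit of complex V, which differ in their import peptides and encode the same mature protein, ATP5MC3 had 125 counts, ATP5MC1 had 41 and ATP5MC2 had 33. ATP5MG had 72 counts and ATP5MGL 0. UQCRH had 440 counts and UQCRHL, a gene derived from it, had 10. NDUFA4 had 50 counts and NDUFA4L2, a hypoxia-induced relative, had 1. How the counting treated reads shared by such near copies is not given in the sources used here, so these splits are uncertain.

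The comparison of siSHMT2 with siNC asks whether silencing SHMT2 moved the RNA of the respiratory complexes. Summed over the 83 genes, TMM-scaled CPM (counts relative to the library's counts on tested genes) were 1949, 1878 and 1824 for siNC and 1862, 1753 and 1730 for siSHMT2. The siSHMT2 mean of 1782 ± 70.5 (SD, n = 3) was 94.6% of the siNC mean of 1884 ± 62.6 (SD, n = 3), and the groups overlapped. The summed CPM of complex I was 889 ± 62.9 in siNC and 869 ± 38.5 in siSHMT2 (SD, n = 3), and that of complex III was 257 ± 33.1 and 235 ± 14.98. For complex IV it was 236 ± 23.2 and 208 ± 31.1, and for complex V 501 ± 60.3 and 469 ± 29.6. For each of the complexes the libraries of the groups overlapped in this sum.

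**Figure D2:**
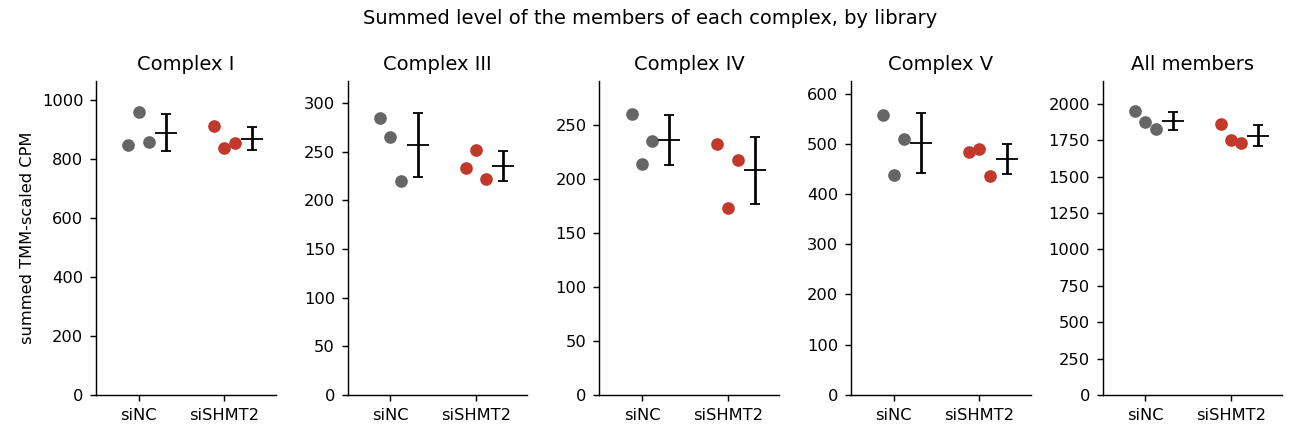
Summed TMM-scaled CPM of the members of each complex and of all 83 genes, from 0; each point is a library (grey siNC, red siSHMT2) and the bars give the mean and SD of 3 libraries. In every panel the groups overlap, and over all members siSHMT2 stands at 94.6% of siNC.

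Gene by gene, no subunit passed the test. Of the 38 genes, 0 had an adjusted p under 0.05 in edgeR's quasi-likelihood test, and of all 7207 genes that entered it 0.0% did. DESeq2 and limma on log2 FPKM also gave 0 of the 38. At an unadjusted p under 0.05, 1 of the 38 was lower in siSHMT2, against 1.94% of the 6702 tested genes with 60 or more counts, and 0 were higher, against 1.92%. The groups did not overlap in scaled counts in 2 of the 38 genes, both lower in siSHMT2, against 4.57% of the 6702 genes lower and 4.57% higher. A call in 1 gene of 38 is near these shares.

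More of the 38 genes had a negative than a positive log2 fold change, by small amounts. It was negative for 25 (65.8%) and positive for 13, and the median was -0.10, against 50.3% negative and a median of -0.0015 over the 6702 genes. In complex I 12 of 19 were negative with a median of -0.09, in complex III 3 of 3 with -0.08, in complex IV 4 of 6 with -0.23 and in complex V 6 of 10 with -0.09. Leaving out siSHMT2 replicate 2 turned the median of complex I to 0.0375 and that of complex IV to 0.0323, and brought that of all 38 to -0.0469. Without siSHMT2 replicate 1 the median of complex III was 0.0225 and without siNC replicate 3 it was -0.28, and without siNC replicate 1 that of complex V was 0.004. The genes are not independent of each other, and no test was run over them.

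The precision of each gene sets what can be said of it. The standard error of the log2 fold change ran from 0.17 to 0.48 with a median of 0.31 over the 38 genes, which was 1.25 to 1.65 times the error of counting alone. The 95% interval lay within 1.5-fold either way for 4 of the 38 genes, against 27.6% of the 6702 genes, and within 2-fold either way for 25 (65.8%), against 69.7%. The median count of the 38 genes was 148.5 over all libraries. For most of the 38 genes the interval thus still held a 1.5-fold change in at least 1 direction. Whether a change of that size would be detected was not tested.

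**Figure D3:**
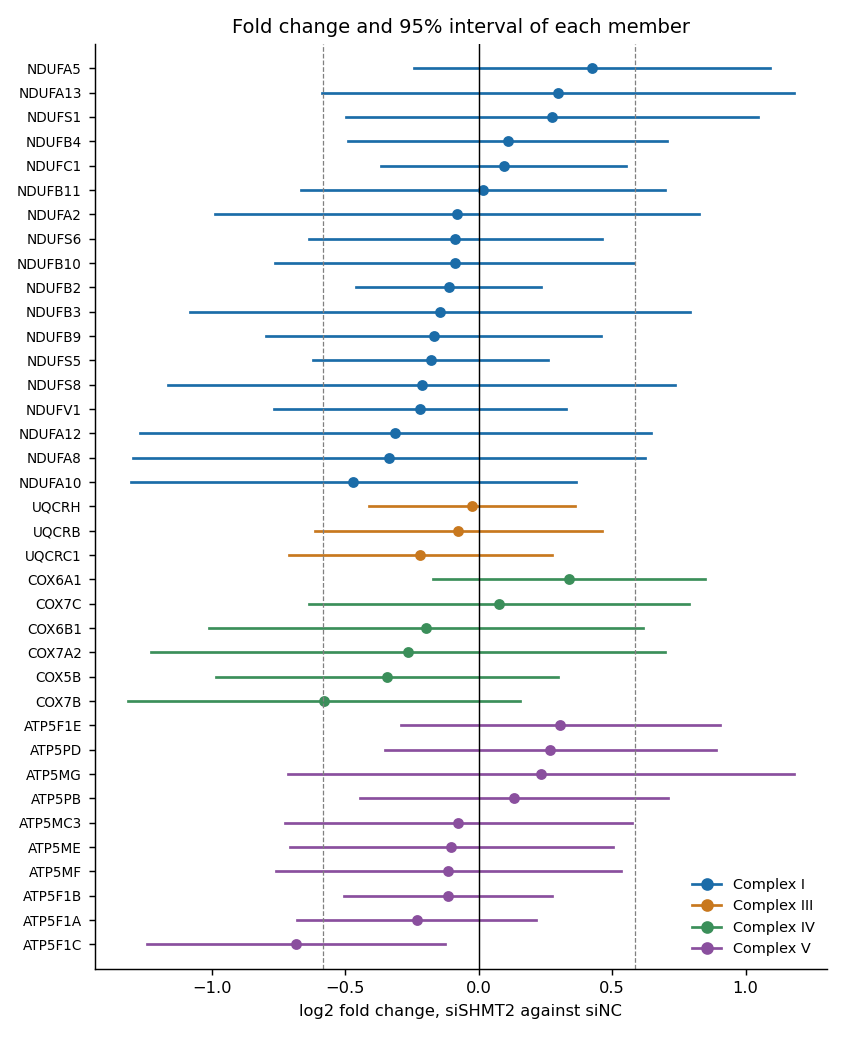
Log2 fold change of siSHMT2 against siNC (point) with its 95% interval (line) for all but 1 of the 38 subunit genes with 60 or more counts, coloured by complex; the solid line marks no change and the dashed lines a 1.5-fold change. ATP5F1C, at -0.68, is the gene whose interval does not include 0, and 4 intervals lie between the dashed lines.

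In complex I the extremes were accessory subunits. NDUFA5 had 39.8, 28.2 and 19.3 CPM in siNC and 21.4, 37.8 and 53.9 in siSHMT2. The groups overlapped, with the highest value in siSHMT2 replicate 3, and the log2 fold change of 0.42 (SE 0.33) was the largest of the 38. NDUFA10 (ENSG00000130414, GRCh38 chr2:239892450-240025743, minus strand), an accessory subunit of the membrane arm, had 15, 11 and 22 counts in siNC and 9, 11 and 11 in siSHMT2. Scaled to depth these were 18.7, 18.2 and 24.99 CPM against 17.5, 14.3 and 13.8, so that the groups stood apart by less than 1 CPM. The log2 fold change was -0.47 (SE 0.41), and in FPKM the groups overlapped, with 2.07 in siNC replicate 2 and 2.10 in siSHMT2 replicate 1.

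Core subunits of complex I that are named here had overlapping groups. NDUFS1 had 32.4, 24.9 and 9.1 CPM in siNC and 23.3, 22.2 and 32.6 in siSHMT2, a log2 fold change of 0.27 (SE 0.38). NDUFV1, which binds NADH and flavin, had 37.3, 49.7 and 52.2 CPM in siNC and 36.9, 39.1 and 42.6 in siSHMT2, a log2 fold change of -0.22 (SE 0.27). The values of both genes overlapped between the groups, and for NDUFS1 the lowest library was a control. NDUFS8, an iron-sulfur subunit, had a log2 fold change of -0.21 (SE 0.47). NDUFA13, also known as the cell death regulator GRIM-19, had a log2 fold change of 0.30 (SE 0.44). NDUFS5, the highest gene per listed length, had 102, 87.9 and 81.8 CPM in siNC and 118, 71.7 and 57.7 in siSHMT2. Its lowest and its highest library were both in siSHMT2, and the log2 fold change was -0.18 (SE 0.22).

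In complex III the intervals of all 3 genes lay within 2-fold either way. UQCRH had 123, 94.5 and 86.3 CPM in siNC and 91.3, 112 and 94.0 in siSHMT2, with a log2 fold change of -0.03 (95% interval -0.41 to 0.36). UQCRC1, a core protein, had 61.0, 63.0 and 54.5 CPM in siNC and 48.5, 59.95 and 43.9 in siSHMT2, and a log2 fold change of -0.22 (95% interval -0.71 to 0.27). UQCRB had 52.3, 74.6 and 36.3 CPM in siNC and 38.8, 50.8 and 58.9 in siSHMT2, and a log2 fold change of -0.08 (95% interval -0.61 to 0.46). In none of these genes did the groups stand apart. UQCRC2 and the Rieske iron-sulfur protein UQCRFS1 had 20 counts each over the 6 libraries, too few for a fold change.

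In complex IV all 6 genes encode subunits around the catalytic core, which itself comes from the mitochondrial genome. COX7B had 43.6, 28.2 and 20.4 CPM in siNC and 27.2, 20.9 and 15.04 in siSHMT2, a log2 fold change of -0.58 (SE 0.36, unadjusted p = 0.114, adjusted p = 0.999 by edgeR's quasi-likelihood test). The siNC replicate 1 was the highest library, and the groups overlapped. COX6A1 had 41.1, 43.1 and 51.1 CPM in siNC and 60.2, 46.9 and 65.2 in siSHMT2, a log2 fold change of 0.34 (SE 0.25), with siSHMT2 replicate 2 inside the range of siNC. COX5B had 34.8, 33.2 and 61.3 CPM in siNC and 34.9, 18.2 and 50.1 in siSHMT2, a log2 fold change of -0.34 (SE 0.32). In both groups of COX5B replicate 3 was the highest library. COX7A2 had a log2 fold change of -0.27 (SE 0.48) and COX7C one of 0.08 (SE 0.35), so that the 6 genes of the complex spread to both sides of 0.

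In complex V the gene for the gamma subunit, the central shaft that turns inside the catalytic head, had the lowest fold change of all. ATP5F1C (ENSG00000165629, GRCh38 chr10:7788147-7807815, plus strand) had 50, 33 and 40 counts in siNC and 22, 22 and 25 in siSHMT2. Scaled to depth these were 62.2, 54.7 and 45.4 CPM in siNC against 42.7, 28.7 and 31.3 in siSHMT2, and the lowest siNC library lay above the highest siSHMT2 library. With 3 libraries a group, the siNC mean was 47.2 ± 7.54 FPKM and the siSHMT2 mean 29.9 ± 6.76 FPKM (SD). The log2 fold change was -0.68 (SE 0.28, 95% interval -1.24 to -0.12), with an unadjusted p of 0.0169 and an adjusted p of 0.999 by edgeR's quasi-likelihood test. This is the 1 subunit at an unadjusted p under 0.05, and it does not pass the correction. Its unadjusted p was 0.088 without siNC replicate 1 and 0.0753 without siSHMT2 replicate 2, and over all 15 alternatives it ran from 0.0068 to 0.088. No exon of another gene overlaps ATP5F1C on the opposite strand, but whether its counts are reads of its own strand was not tested.

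The other parts of the catalytic head did not stand apart. ATP5F1A, the alpha subunit, had 77.2, 71.3 and 76.1 CPM in siNC and 50.5, 79.5 and 58.9 in siSHMT2. Its siNC libraries were close together and siSHMT2 replicate 2 lay above them all, with a log2 fold change of -0.23 (95% interval -0.68 to 0.22). ATP5F1B, the catalytic beta subunit, had 110, 81.2 and 96.5 CPM in siNC and 91.3, 91.2 and 85.3 in siSHMT2, a log2 fold change of -0.11 (95% interval -0.50 to 0.27). The interval of neither gene includes a halving. ATP5F1E, the epsilon subunit of the same shaft as ATP5F1C, had a log2 fold change of 0.31 (SE 0.30), of the opposite sign, and the delta subunit gene ATP5F1D had 49 counts and is given no fold change. Of the stalk and membrane parts, ATP5PD had a log2 fold change of 0.27 (SE 0.31), ATP5MG of 0.23 (SE 0.47) and ATP5ME of -0.10 (SE 0.30), none with groups apart.

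**Figure D4:**
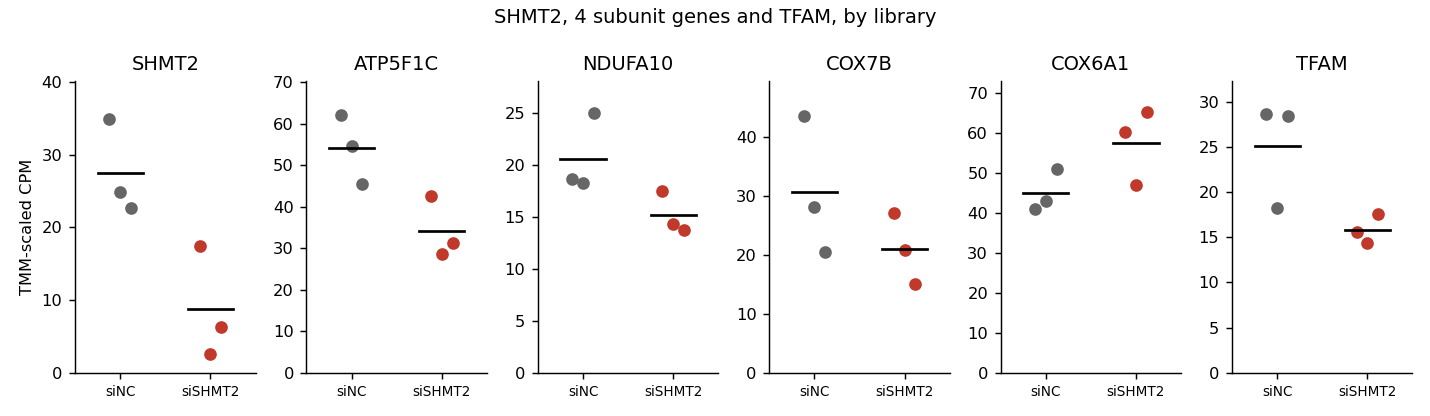
TMM-scaled CPM of SHMT2, of ATP5F1C, NDUFA10, COX7B and COX6A1, and of the mitochondrial transcription factor gene TFAM; each point is a library (grey siNC, red siSHMT2), black lines are group means and each axis starts at 0. In SHMT2, ATP5F1C, NDUFA10 and TFAM the groups do not overlap, and in COX7B and COX6A1 they do.

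The subunits and carriers that the symbol rule leaves out did not pass the test either. Of 10 such genes, 6 had 60 or more counts, 2 with a positive and 4 with a negative log2 fold change, and none had an unadjusted p under 0.05 or groups apart. Of the 6702 genes, 1.92% were higher and 1.94% lower at such a p, and 4.57% stood apart in each direction. With such shares, few or no calls are to be awaited in lists as short as this and those below. CYCS, the electron carrier cytochrome c, had a log2 fold change of -0.08 (SE 0.19), COX4I1, the largest nuclear subunit of complex IV, -0.07 (SE 0.25), and CYC1, the cytochrome c1 of complex III, -0.10 (SE 0.30). The largest was that of DMAC2L, known as a factor of complex V, at 0.43 (SE 0.33), where opposite-strand exons cover 41.8% of its exonic bases and CDKL1 had 1057 counts against 123. Of complex II, SDHC had a log2 fold change of 0.03 (SE 0.44), and SDHA, SDHB and SDHD had 58, 47 and 17 counts. The 13 subunits encoded in the mitochondrial genome held 11.6% to 13.0% of the counts of a library, 10 with a positive and 3 with a negative log2 fold change around a median of 0.02, and none had an unadjusted p under 0.05.

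Assembly factors, which build the complexes without staying in them, were mostly below 60 counts. For complex I 7 of 19 reached that count, 2 with a positive and 5 with a negative log2 fold change. For complex III it was 4 of 9 (3 and 1), for complex IV 10 of 25 (4 and 6) and for complex V 0 of 6, where the insertase gene OXA1L had the most counts, 45. None of these assembly genes had an unadjusted p under 0.05. The groups stood apart in 1, ACAD9, a factor of complex I, with a log2 fold change of -0.44 (SE 0.39), against 4.57% of the 6702 genes apart in that direction. ACAD9 was named after its values were seen.

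Of 15 regulators of nuclear and mitochondrial OXPHOS genes, 8 had 60 or more counts, 3 with a positive and 5 with a negative log2 fold change. TFAM, which packages and transcribes mitochondrial DNA, had 28.6, 18.2 and 28.4 CPM in siNC and 15.5, 14.3 and 17.6 in siSHMT2. The groups did not overlap, by less than 1 CPM, as in 4.57% of the 6702 genes in that direction. Its log2 fold change was -0.68 (SE 0.39, unadjusted p = 0.081, adjusted p = 0.999 by edgeR's quasi-likelihood test). GABPA and YY1, whose motifs were searched above, had log2 fold changes of -0.04 (SE 0.26) and 0.19 (SE 0.27). NRF1 had 32 counts and PPARGC1A, the coactivator of mitochondrial biogenesis, had 1, so neither is given a fold change.

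Because the strand setting is not known, counts from a gene and its opposite-strand partner cannot be told apart, and reads may have been assigned to the opposite strand. Exons of genes on the opposite strand overlapped the exons of 31 of the 83 subunit genes (37.3%), against 36.1% of the 20045 protein-coding genes. In 7 of the 31 more than 20% of the exonic bases were covered. These were ATP5ME (61.3%), NDUFS7 (51.5%), COX6A2 (38.3%), ATP5PF (37.3%), NDUFB2 (35.1%), UQCR10 (24.5%) and ATP5F1E (23.2%). In 15 of the 31 the opposite-strand genes held more counts than the subunit gene. The largest gap was at ATP5MG, where a lncRNA gene (ENSG00000254873) shares 166 bases and had 12014 counts against 72. IK, opposite NDUFA2, had 747 counts against 71, and a lncRNA gene opposite UQCR10 had 337 against 40. NDUFA4L2 shares 33 bases with SHMT2, the knockdown target, which had 79 counts against 1. Opposite-strand exons cover 8.38% of the exonic bases of SHMT2.

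**Figure D5:**
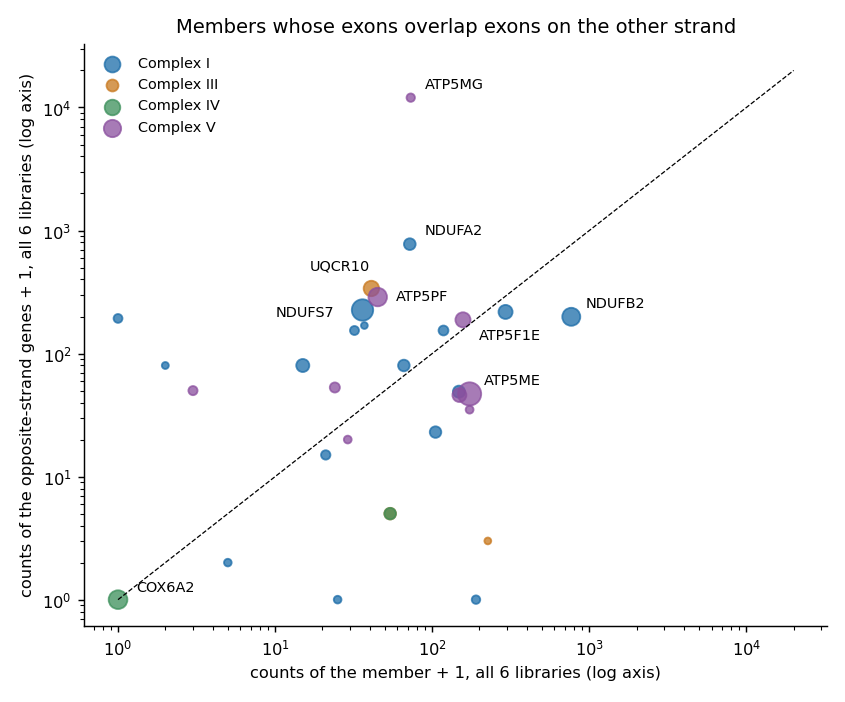
Counts over the 6 libraries of the 31 subunit genes with opposite-strand exon overlap (horizontal axis) and of the genes that overlap them (vertical axis), each plus 1 on log axes; point area grows with the percent of exonic bases covered and colour gives the complex. Points above the dashed line of equal counts are the 15 genes whose opposite-strand genes held more counts, with ATP5MG, at 72 counts, highest on the vertical axis.

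NDUFB2, which had the most counts, and ATP5ME, the highest gene of complex V per length, were among the genes with such an overlap. NDUFS5 and UQCRH, the highest per listed length, were not, while with canonical lengths NDUFB2 was the highest. NDUFB2 (ENSG00000090266, GRCh38 chr7:140690777-140722790, plus strand) shares 1239 bases with exons of BRAF, which had 193 counts against 767. It had 142, 255 and 162 CPM in siNC and 150, 186 and 171 in siSHMT2, with siNC replicate 2 highest, and a log2 fold change of -0.11 (SE 0.17), while BRAF had one of 0.38 (SE 0.27). ATP5ME (ENSG00000169020, GRCh38 chr4:672436-674330, minus strand) lies against MYL5, which had 46 counts against 172. ATP5F1E lies against TUBB1, which had 187 counts against 156 and a log2 fold change of 0.24 (SE 0.28).

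Among the 38 genes with 60 or more counts, 14 had an overlap, in 3 of them over 20%, and in 5 the opposite-strand genes held more counts. The median log2 fold change was -0.03 in these 14 and -0.15 in the 24 without. ATP5F1C and NDUFA10 are among the 24. The part of opposite-strand reads in the counts of the 31 genes, or of the genes without an overlap, was not tested.

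The same holds outside the subunits. COX20, a chaperone of complex IV assembly, had 7919 counts, above the 767 of the highest subunit gene, and opposite-strand exons cover 76.6% of its exonic bases, where HNRNPU had 7930 counts. UQCC6 had 2963 counts with 18.2% covered, opposite HSP90B1 with 2155. In the mitochondrial genome MT-ND6, which lies on the other strand than the remaining protein genes, had 188415 counts per kilobase of exon. The other genes ran from 7503 for MT-CO1, the lowest, to 128951 for MT-ND5, with 58295 for MT-CO3. What these values say about the counting was not tested.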

How the data were processed

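Gene counts and FPKM of 6 HT-1376 libraries (3 siNC, 3 siSHMT2) were used as deposited. The authors trimmed the reads with fastp 0.23.4 and aligned them to GRCh38 with HISAT2 2.2.1; the deposited counts are raw reads per gene, and the deposited FPKM values are those counts scaled by listed gene length and library total, except that genes without a listed length, among them the 13 mitochondrial subunit genes, are listed at 0. The counting program and its strand setting are not given in the sources used here. The subunit genes, gene lists and rules were chosen with earlier results of these data known.

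For the comparison, edgeR 4.0.16 in R 4.3.3 was run on the whole table: filterByExpr kept 7207 genes, TMM factors were fitted, and a two-sided quasi-likelihood test without a block gave p-values adjusted over all of them (Benjamini-Hochberg). Fold changes are given for genes with 60 or more counts over 6 libraries, with a 95% interval from the standard error and the t quantile. Each library was also set against its replicates (chi-square per degree of freedom 1.79 to 2.51), and no pair was within counting noise. The script was tested on simulated data.

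Alternatives were DESeq2 1.42.0, RLE size factors, library size only, no filter, a minimum of 10 counts per library, log2 FPKM in limma 3.58.1 (pseudocount 1 or 0.1), the replicate block and each library left out. The text names SHMT2, the highest and lowest of each complex by FPKM, the 3 smallest unadjusted p in each direction of each complex, genes with an unadjusted p under 0.05 or groups apart, isoform pairs, those with the most opposite-strand overlap, and set genes of the other lists, by a rule. ACAD9, DMAC2L, OXA1L, YY1, NDUFS8, UQCRC2, UQCRFS1, NDUFA7, NDUFA9, NDUFC2 and ATP5F1D were named after their values were seen. The values of 1 gene of complex I are not reported singly or drawn here. Overlaps came from GENCODE release 44 (62666 of 63241 genes placed) with bedtools 2.31.1. A library holds 533689 to 890574 assigned counts, a small part of the sequenced reads, which limits the precision, and intervals and floors cover counting error only where so stated.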

Additional observations from a re-analysis of the deposited data

How the results depend on the processing

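SHMT2 kept its direction in all 14 alternatives in which it was tested (log2 fold change -2.63 to -1.31, both ends from leaving out libraries), and no subunit gained an adjusted p under 0.05 in any of 15 alternatives. ATP5F1C stayed lower in all 15 (-0.84 to -0.56), with an unadjusted p under 0.05 in 13. SHMT2 and the 21 subunits that the naming rule took by level or p were followed through the alternatives that tested them (14 or 15 each, since 6 of them, SHMT2 included, were not tested at a minimum of 10 counts in every library), and 13 of these 22 kept their direction there, while the other genes given in the text were not followed singly; the 16 changes of sign were in 9 genes and all came from leaving out libraries. Their log2 fold changes without a library ran from -0.50 to 0.0266 for NDUFS5, -0.14 (without siNC replicate 3) to 0.72 for NDUFS1, -0.14 to 0.15 (without siNC replicate 1) for UQCRH, -0.32 to 0.32 for UQCRB, -0.29 (without siNC replicate 3) to 0.55 for COX7C, -0.79 to 0.017 (without siNC replicate 3) for COX5B, -0.54 to 0.0758 (without siSHMT2 replicate 2) for COX7A2, -0.36 to 0.14 (without siNC replicate 1) for ATP5ME and -0.15 (without siNC replicate 1) to 0.95 for ATP5MG. NDUFS5 was above 0 without siSHMT2 replicate 3. The largest values of UQCRB and ATP5MG and the lowest of NDUFS5 and ATP5ME are without both siSHMT2 replicate 1 and siNC replicate 2. The other reversed values were 0.0225 and 0.0183 for UQCRH, 0.19 and 0.0499 for UQCRB, -0.06 for COX7C, 0.0981 for ATP5ME and -0.0685 for ATP5MG.

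Leaving out 1 library at a time gave 0 to 3 subunits of 38 with an unadjusted p under 0.05 (3 without siSHMT2 replicate 1, where NDUFS5 and NDUFA5 joined ATP5F1C; 0 without siNC replicate 1 or siSHMT2 replicate 2), and 2 to 4 with an interval within 1.5-fold (2 without siNC replicate 2). Of all genes tested with a library left out, 335 of 7734 had such a p without siSHMT2 replicate 1. The share was lowest without siNC replicate 3 (292 of 7626) and highest without siSHMT2 replicate 3 (412 of 7727). The median log2 fold change then ran from -0.13 to -0.0469 over all 38 subunits, from -0.14 to 0.0375 in complex I (both ends from siSHMT2, without replicate 1 and without replicate 2), from -0.28 (without siNC replicate 3) to 0.0225 in complex III, from -0.37 to 0.0323 in complex IV and from -0.11 to 0.004 in complex V. A choice made after seeing the data left out both siSHMT2 replicate 1 and siNC replicate 2. There 2 of the 38 subunits had an unadjusted p under 0.05, against 369 of all 7534 genes tested. Of the intervals, 1 lay within 1.5-fold, and the median of complex IV was -0.50. Limma on log2 FPKM with a pseudocount of 1 put 8 intervals within 1.5-fold; the cause was not tested. With library size only and with FPKM, 1 subunit rather than 2 had groups apart (share of all genes not computed). The median over subunits without opposite-strand overlap was -0.15. With 1 position of the NRF1 motif open (GCGCANGC), 42.4% of the subunit windows held it, against 14.23% of all and 19.47% of those of protein-coding genes.

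With the replicate number as a block, 1 subunit of 38 had an unadjusted p under 0.05, against 304 of all 7207 genes tested. There 0 subunits passed the adjusted threshold and the median of all 38 was -0.09. Same-numbered libraries did not deviate together (correlations -0.015, 0.048 and -0.012), so the numbers were not taken as pairs. Counting NDUFA4, with 50 counts, with complex IV added no fold change and gave summed CPM of 249 ± 20.9 in siNC and 220 ± 37.6 in siSHMT2 for complex IV and of 877 ± 61.8 and 857 ± 30.4 for complex I (SD, 3 libraries). Small assigned counts limit precision: subunit genes with 60 or more counts had a median of 148.5 over 6 libraries.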
